A study of Rattus norvegicus with 9 samples.

Results

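Collagens, laminins and integrins make up much of the fibrous matrix, the basement membrane and the cell-surface receptors that hold an epithelium to its stroma. They were followed here in RNA from the vestibular sensory epithelium of rats given 3,3'-iminodipropionitrile (IDPN), a compound toxic to vestibular hair cells (HC), in the drinking water. Members were the protein-coding genes whose symbol begins Col, Lama, Lamb, Lamc, Itga or Itgb followed by a chain number, and whose counts summed to at least 10 over the 9 libraries. Of 32883 genes in the table, 22250 of them protein-coding, 73 met this rule. They were 41 collagens, 10 laminins and 22 integrins. The last family counts 19 integrin subunits and 3 genes that carry the name but code for binding partners or centromere proteins (Itgb1bp1, Itgb1bp2 and Itgb3bp).

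The animals were Long-Evans rats. The authors describe the rats of an earlier IDPN experiment as male adults and do not restate the sex for this one. The IDPN-3wk and IDPN-7wk groups drank water with 20 mM IDPN for 3 or 7 weeks, and the control group drank plain water. Each group had 3 rats, and each library came from 1 rat, with its 2 utricles and 6 cristae pooled. Controls of both times were kept as 1 group, so the comparisons at 3 and 7 weeks share their 3 control libraries. The labels do not say which control belongs to which time. Length of exposure therefore cannot be told apart from any difference in age or time in the study between the IDPN groups. The age of the animals is not stated for certain and is not given. The labels give 1 batch for all 9 libraries, so no labelled batch separates the groups. The sample titles also carry a code whose meaning is not stated. The 3 controls have a code to themselves, IDPN-3wk 1 and IDPN-7wk 1 share another, IDPN-3wk 2 and 3 a further one, and IDPN-7wk 2 and 3 the last. Control against IDPN therefore cannot be told apart from whatever this code stands for. The replicate numbers used below follow the order of deposition and pair no animals. Values for a group are given in the order of its replicates 1, 2 and 3.

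Collagens are trimers of alpha chains and fall into classes by the assembly they form: fibrils, sheets under epithelia, or molecules that sit on the surface of fibrils (FACIT collagens). Laminins are trimers of an alpha, a beta and a gamma chain that polymerise in the basement membrane, and integrins are alpha-beta dimers that bind these proteins from the cell side. In the inner ear, collagens II, IX and XI are best known from the acellular membranes over the hair cells and from cartilage, and laminins and integrin alpha 6 beta 4 from the base of the epithelium and from Schwann cells.

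Library totals were 38023198, 32251682 and 38044824 counts in control, 37640956, 31100118 and 32696268 in IDPN-3wk, and 46007687, 46018385 and 37275081 in IDPN-7wk. Levels are in CPM, each library's counts brought to a common total by the trimmed mean of M-values (TMM), and 3 counts are then worth 0.0611 to 0.101 CPM. Since PCR copies carried no molecular identifiers, this floor covers counting error only. No transcript lengths were at hand, so where genes are ranked or shares are taken, this is by counts or CPM and not per length. At equal depth, Control 3, IDPN-3wk 1 and IDPN-3wk 2 had fewer genes detected than the others, with 15470, 15502 and 15387 genes against 16831 to 17319. This set of 3 libraries was defined from the data and is not a labelled batch. It is marked in the plots, and results that rest on it are given with and without it. When it is left out, IDPN-3wk 3 is the only library of its group. Comparisons with IDPN-3wk in that setting rest on that library, with the spread from the other groups, and decide nothing. They do enter the numbers of alternatives and the ranges of adjusted p given below. IDPN-7wk 1 also stood apart in several results below, with the lowest summed collagen level of the 9. The 3 IDPN-7wk libraries differed from the other 6 in composition. Mitochondrial genes took 5.64% to 7.3% of their counts against 9.27% to 11.1%, and the 50 most abundant genes took 19.2% to 20.9% against 24.4% to 26.5%. The part of this in the 7-week results was not tested.

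The 73 members were not all tested. A filter on low counts kept 68 of them (37 collagens, 10 laminins and 21 integrins), and Col17a1, Col4a6, Col6a4, Col10a1 and Itgb1bp2, all under 1 CPM on average, dropped out. Of the 68, 64 averaged at least 1 CPM. Of the 73, 1 averaged under 0.1 CPM. Just inside the rule were Col4a6 with 20 counts in total, Col17a1 with 36 and Itgb1bp2 with 41. Just outside it were Col19a1 with 1 count and Col23a1 with 3. Itgb5, the integrin beta 5 subunit, was outside because the table lists it as a processed transcript. Its levels were 46.4, 51.7 and 56.1 CPM in control, 57, 74.1 and 52.5 in IDPN-3wk, and 36.9, 52.8 and 45.7 in IDPN-7wk. These ranges overlap, and it was not a DEG. The symbols Lama3 and Lamb4 are not in the table, so the laminin alpha 3 chain, a usual partner of the product of Lamb3, was not analysed.

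As a family, the collagens lay lower in both IDPN groups. Summed over its members, collagen RNA was at 5036, 6011 and 5054 CPM in control, 3552, 3571 and 3417 in IDPN-3wk, and 2492, 4136 and 3556 in IDPN-7wk. Each of the 6 exposed libraries lay below each control, and the means were 5370 ± 558, 3510 ± 84 and 3390 ± 834 CPM (SD, n = 3). The 2 exposed groups overlapped. With 3 libraries a group, the smallest p that an exact two-sided permutation test can give is 0.1, so no such test of sums was made. The gap came mostly from 4 genes: Col11a2, Col9a1, Col9a2 and Col9a3 held 69.2%, 70.8% and 65.6% of collagen counts in control, 65.3%, 58.9% and 56.9% in IDPN-3wk, and 53.7%, 62% and 60.5% in IDPN-7wk. Summed without them, the other 37 collagens were at 1550, 1760 and 1740 CPM in control, 1230, 1470 and 1470 in IDPN-3wk, and 1150, 1570 and 1400 in IDPN-7wk, where IDPN-7wk 2 overlapped the controls.

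The laminins and integrins moved less as sums. Laminin RNA was at 1244, 1188 and 1256 CPM in control, 1049, 1196 and 1067 in IDPN-3wk, and 1024, 1140 and 1053 in IDPN-7wk. Here IDPN-7wk lay below control while IDPN-3wk 2 lay inside the control range. Integrin RNA was at 892.6, 939.8 and 942.7 CPM in control, 832.3, 958.9 and 912.9 in IDPN-3wk, and 781.3, 962 and 928.4 in IDPN-7wk. The 3 groups overlapped, as the plot of summed levels by family shows. In bulk RNA such as this, fewer cells of a type and less RNA per cell cannot be told apart.

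**Figure D1:**
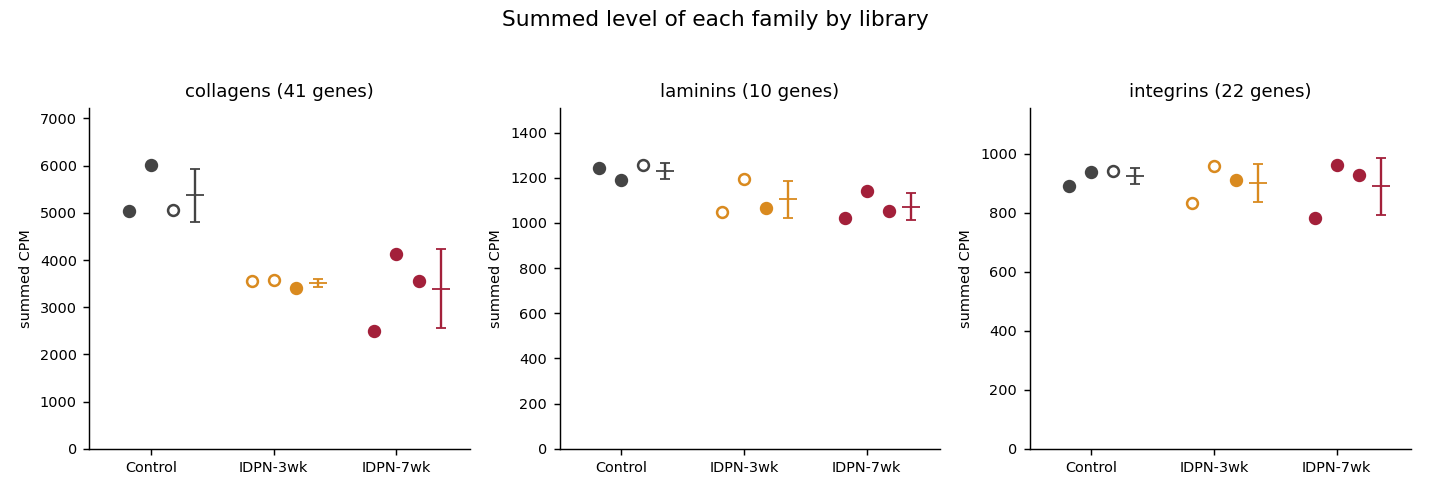
Summed CPM of the collagens, laminins and integrins (vertical axes) in the 9 libraries by group (horizontal axis); points are libraries, open circles the 3 with fewer detected genes, bars the mean and SD (n = 3). All 6 IDPN libraries, between 2492 and 4136 CPM, lie below the controls, between 5036 and 6011 CPM, for the collagens, while the integrin sums overlap.

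Gene by gene, the test was edgeR's quasi-likelihood test with Benjamini-Hochberg adjustment over 15517 genes. A gene is called a differentially expressed gene (DEG) when its adjusted p was under 0.05 and its fold change was above 1.5. In IDPN-3wk against control, 2 of the 68 members tested (2.94%) were DEGs, both downregulated. The background over all genes tested was 1.65% in either direction, 1.21% downregulated and 0.438% upregulated. In IDPN-7wk against control, 7 members (10.3%) were DEGs, 6 downregulated and 1 upregulated, beside 5.13% of all genes, 3.13% downregulated and 2.00% upregulated. In IDPN-7wk against IDPN-3wk, edgeR called 0 members, beside 0.483% of all genes. In that direct comparison 11 members (16.2%, beside 13.8% of all genes) had an unadjusted p under 0.05, and DESeq2 called 2, beside 3.87% of all genes.

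These counts depended on single libraries. The 3-week count was 1 without Control 1, 1 without Control 2, 0 without IDPN-3wk 2 and 1 without IDPN-7wk 3, beside 0.487%, 0.475%, 1.21% and 1.04% of all genes. The 7-week count was 4 without Control 2 and 4 without IDPN-7wk 3, where the 4 were among the 7, beside 3.22% and 3.21% of all genes. Calls over all genes thus fell as well. Without IDPN-3wk 3 the direct comparison gave 1, beside 2.81% of all genes. Without the 3 libraries with fewer detected genes the 7-week count was 12, and 6 of the 12 were among the 7, beside 9.56% of all genes. IDPN-3wk 3 is then alone in its group, so no count is given for the comparisons with IDPN-3wk.

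More members separated the groups than passed the test. The control and IDPN-3wk libraries did not overlap in 19 members (27.9%, beside 19.6% of all genes), and the control and IDPN-7wk libraries did not overlap in 32 (47.1%, beside 34.3%). The IDPN groups did not overlap with each other in 10 members (14.7%, beside 21.0%).

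The counts by family were not tested against each other. At 3 weeks the DEGs were 2 of 37 collagens (5.41%, beside 1.65% of all genes), while edgeR called 0 of 10 laminins and 0 of 21 integrins. The unadjusted p was under 0.05 in 10 collagens (27%), 4 laminins (40%) and 2 integrins (9.52%), beside 15.8% of all genes. At 7 weeks they were 3 of 37 collagens (8.11%), 4 of 10 laminins (40%) and 0 of 21 integrins, beside 5.13% of all genes, with 16, 7 and 2 (43.2%, 70% and 9.52%) at an unadjusted p under 0.05, beside 19.3% of all genes. DESeq2 called 5 collagens, 3 laminins and 0 integrins at 3 weeks, and 7, 5 and 0 at 7 weeks, beside 5.04% and 8.81% of all genes. The median log2 fold change at 3 weeks was -0.28 for collagens and -0.24 for laminins, and at 7 weeks it was -0.44 and -0.22. For integrins the medians were 0.02 and 0.06, and these changed sign under other settings, so no direction is given for that family. Over all genes tested the medians were -0.000467 and 0.0097. By family, the 3-week count of collagens was 1 without Control 1, IDPN-7wk 2 or IDPN-7wk 3 and 0 without Control 2 or IDPN-3wk 2. That of laminins was 1 without Control 2, IDPN-3wk 3 or IDPN-7wk 2. The 7-week count of collagens was 1 without Control 2 or IDPN-7wk 3 and 5 without IDPN-3wk 1.

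**Figure D2:**
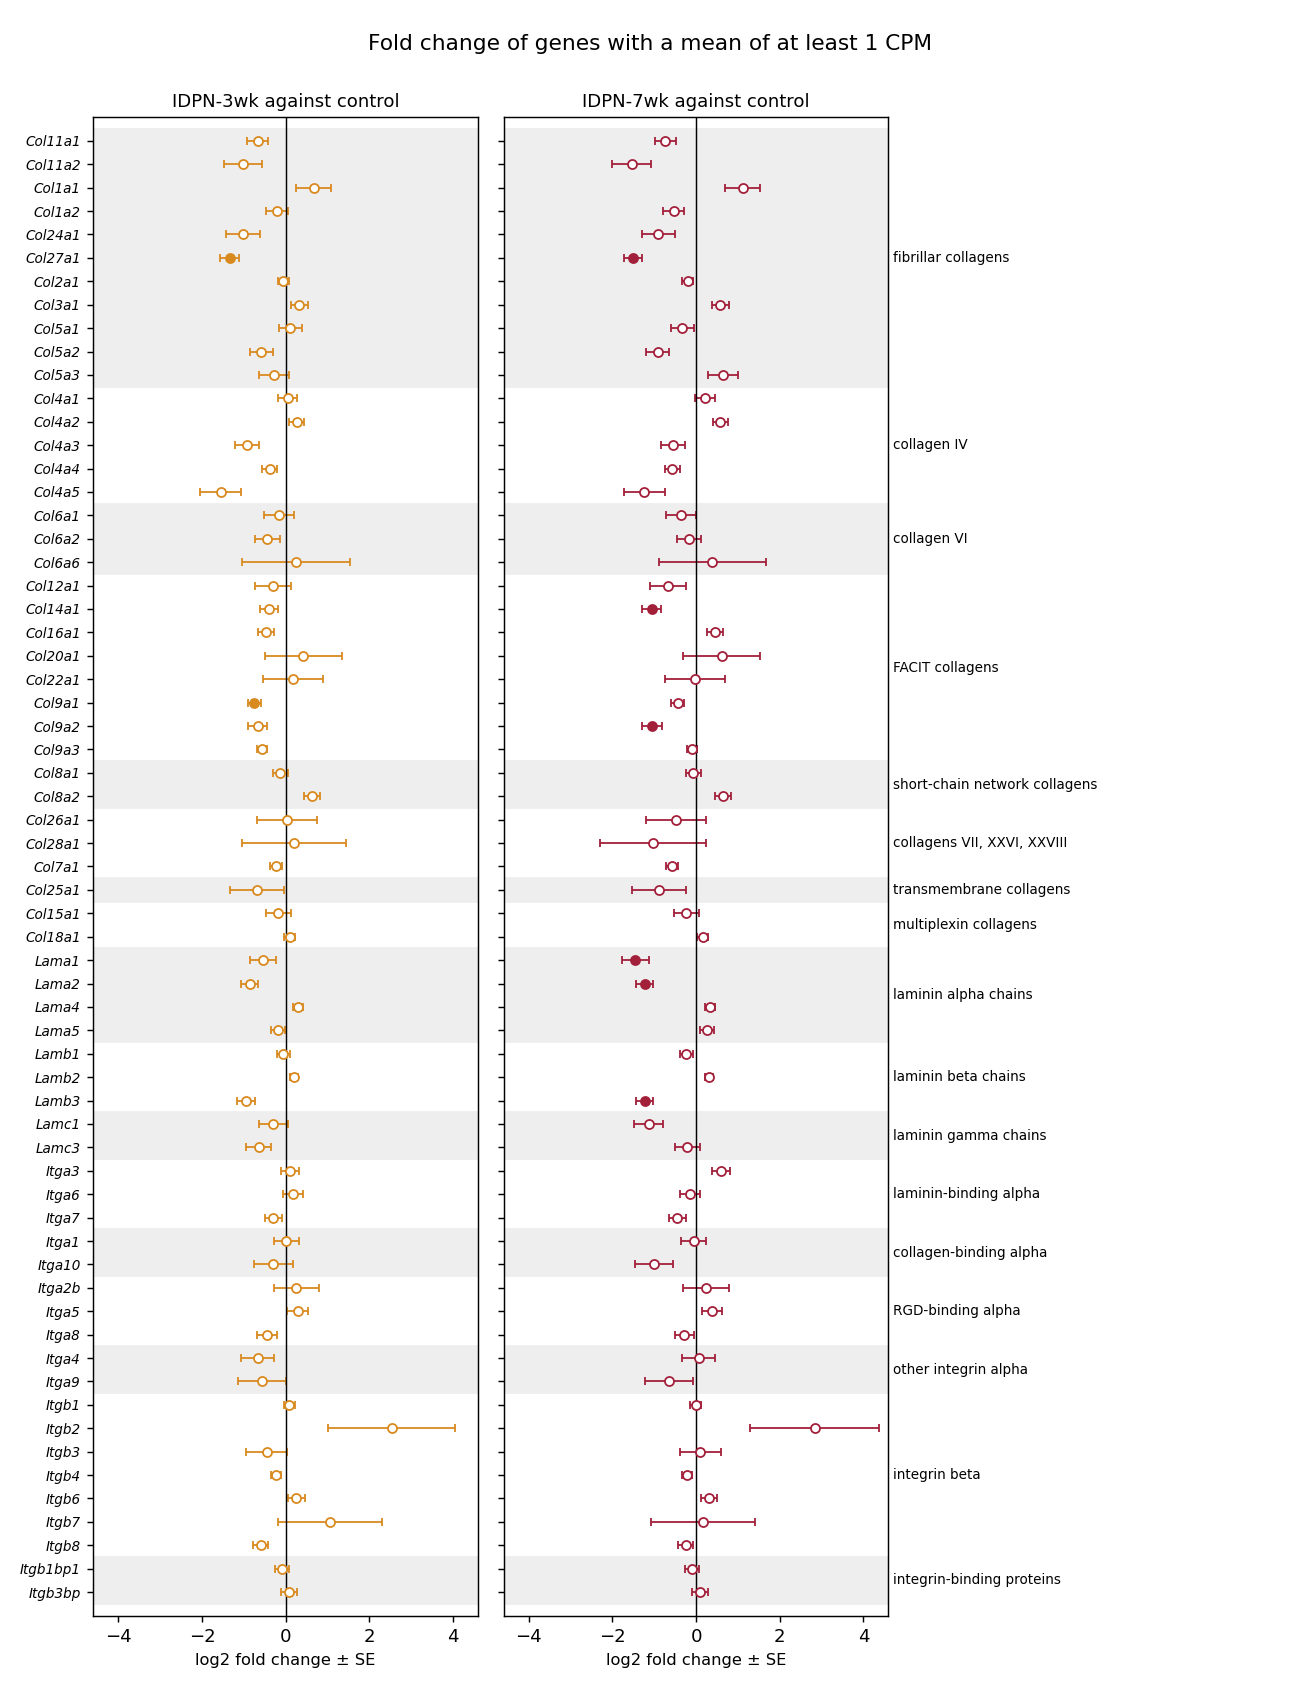
Log2 fold change (horizontal axis) of 63 of the 64 members with a mean of at least 1 CPM, ordered by role (vertical axis), in IDPN-3wk and in IDPN-7wk against control; bars are standard errors of the fit and filled points are DEGs. Col27a1 is a DEG at both times, at -1.34 and -1.51, and no integrin is one in this fit.

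Among fibrillar collagens, Col27a1 (ENSRNOG00000007657) was the 1 DEG at both times. It codes for collagen XXVII, a fibril-forming chain known from cartilage. Its levels were 263, 345 and 316 CPM in control, 136, 124 and 104 in IDPN-3wk, and 70.5, 138 and 116 in IDPN-7wk. Every exposed library was well under every control, and the exposed groups overlapped. The log2 fold change was -1.34 ± 0.221 (SE) at 3 weeks, with an adjusted p of 0.0157, and -1.51 ± 0.222 at 7 weeks, with an adjusted p of 0.00364. At 7 weeks it was a DEG in each of 16 alternatives, with adjusted p from 4.52e-09 to 0.0201. At 3 weeks it was a DEG in 13 of 16, with the lowest adjusted p at 8.71e-07. It was not a DEG without Control 2 (0.0718) or without IDPN-3wk 2 (0.0514), with log2 fold changes of -1.25 and -1.36. Nor was it called without the 3 libraries with fewer detected genes, where the log2 fold change was -1.55. That setting leaves only IDPN-3wk 3 in its group, so it is no test of the group.

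The other fibrillar collagens were not DEGs in the fit of the 9 libraries, and some were under other settings. Col11a2, a chain of collagen XI that is needed for normal hearing, was at 1240, 1590 and 1160 CPM in control, 835, 661 and 472 in IDPN-3wk, and 137, 720 and 514 in IDPN-7wk. Each exposed library lay below each control, but the spread within the exposed groups was wide, with IDPN-7wk 1 far below its group. Its log2 fold change was -1.02 ± 0.46 at 3 weeks (adjusted p 0.32) and -1.54 ± 0.466 at 7 weeks (adjusted p 0.0904, and 0.0196 to 0.29 over the alternatives, the lowest being a call by DESeq2). Its usual partners in the fibril were read beside it. Col11a1, the other variable chain of collagen XI, was at 143, 143 and 141 CPM in control, 132, 63.9 and 71.5 in IDPN-3wk, and 66.6, 103 and 85.7 in IDPN-7wk. All 6 exposed libraries were below the controls, with adjusted p of 0.232 and 0.131. Without IDPN-3wk 1, Col11a1 was a DEG at 3 weeks (0.0216, in a range of 0.0216 to 0.403 over the alternatives) and at 7 weeks (0.0164, in a range of 0.0164 to 0.411). At 7 weeks it was also a DEG by DESeq2 (0.0419), in the fit of the 2 groups alone (0.0177) and without the 3 libraries with fewer detected genes (0.0185). Col2a1, the chain of collagen II, was at 292, 350 and 317 CPM in control, 272, 322 and 335 in IDPN-3wk, and 232, 310 and 295 in IDPN-7wk. These overlapped at both times, with log2 fold changes of -0.05 and -0.20. Counts of Col11a2 per 100 counts of Col2a1 were 423, 454 and 367 in control, 307, 205 and 141 in IDPN-3wk, and 59.2, 232 and 174 in IDPN-7wk, so this ratio was lower in every exposed library. Counts of Col11a1 per 100 of Col2a1 were 49.1, 40.8 and 44.5 in control, 48.7, 19.8 and 21.3 in IDPN-3wk, and 28.7, 33.2 and 29 in IDPN-7wk. For Col11a1, IDPN-3wk 1 lay inside the control range and the other exposed libraries lay below it.

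Col5a2, a collagen V chain that sets fibril width in collagen I fibrils, was at 23.6, 25.7 and 25.6 CPM in control, 11.1, 19 and 19.9 in IDPN-3wk, and 9.84, 17.4 and 12.4 in IDPN-7wk. No exposed library reached the controls, and its log2 fold change at 7 weeks was -0.92 ± 0.27 with an adjusted p of 0.0815, which did not pass. Over the alternatives that adjusted p ran from 0.015 to 0.289, and without IDPN-3wk 1 it was a DEG (0.0335). It was also a DEG by DESeq2 (0.015), in the fit of the 2 groups alone (0.0341) and without the 3 libraries with fewer detected genes (0.0338). Col1a1, the main chain of collagen I, was at 12.3, 28.7 and 19.5 CPM in control, 26.9, 29.3 and 39.8 in IDPN-3wk, and 18.4, 55.6 and 56.2 in IDPN-7wk. The controls overlapped both exposed groups, with an adjusted p of 0.176 at 7 weeks. Without IDPN-7wk 1 it was an upregulated DEG at 7 weeks (1.47, adjusted p 0.0428, in a range of 0.0428 to 0.439 over the alternatives).

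Among the FACIT collagens, collagen IX, which coats collagen II fibrils, has 3 chains. Col9a1 (ENSRNOG00000012920) was at 927, 1230 and 808 CPM in control, 554, 608 and 607 in IDPN-3wk, and 615, 811 and 756 in IDPN-7wk. The IDPN-3wk libraries were below all controls, while IDPN-7wk 2 overlapped them. It was downregulated at 3 weeks, by -0.75 ± 0.153 on the log2 scale (adjusted p 0.0405). At 7 weeks the value was -0.44 (adjusted p 0.137), and the direct test between IDPN groups gave 0.30 with an adjusted p of 0.422, so the 2 times are not shown to differ. The 3-week call held in 6 of 16 alternatives, with adjusted p from 0.000473 to 0.116. It was lost without Control 1 (0.103), Control 2 (0.106), IDPN-3wk 1 (0.104), IDPN-3wk 2 (0.1), IDPN-3wk 3 (0.0604), IDPN-7wk 2 (0.058) or IDPN-7wk 3 (0.0798). It was also lost without the 3 libraries with fewer detected genes (0.116), with that set as a covariate (0.0842) and in the fit of the 2 groups alone (0.0807). In these 10 settings the log2 fold change stayed between -0.83 and -0.56. At 7 weeks it was -0.25 without Control 2 (adjusted p 0.358).

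Col9a2 (ENSRNOG00000011502) was at 941, 1020 and 952 CPM in control, 673, 590 and 564 in IDPN-3wk, and 269, 622 and 501 in IDPN-7wk. No exposed library reached the controls. It was downregulated at 7 weeks, with a log2 fold change of -1.06 ± 0.237 (adjusted p 0.0267), and at 3 weeks its -0.67 ± 0.236 did not pass (adjusted p 0.198). The 7-week call held in 10 of 16 alternatives, with adjusted p from 0.000249 to 0.0987. It was lost without Control 1 (0.0719), Control 2 (0.0856), Control 3 (0.068) or IDPN-7wk 3 (0.0778), without the 3 libraries with fewer detected genes (0.0987), and with that set as a covariate (0.0544), with log2 fold changes between -1.12 and -1.03. Without IDPN-7wk 1, the 3-week value was itself a DEG (adjusted p 0.0188, the lowest of its range, which reached 0.473), as it was in the fit of the 2 groups alone (0.0219).

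Col9a3 (ENSRNOG00000009531) was at 382, 417 and 392 CPM in control, 257, 244 and 303 in IDPN-3wk, and 317, 410 and 381 in IDPN-7wk. It was below all controls at 3 weeks and overlapped them at 7 weeks. At 3 weeks its adjusted p was 0.0387 while its log2 fold change, -0.57 ± 0.116, fell short of the 1.5-fold threshold, so it was not counted as a DEG. Without IDPN-3wk 3 it was (-0.67, adjusted p 0.0253, in a range of 0.00056 to 0.288 over the alternatives). Against IDPN-3wk, IDPN-7wk was at 0.46 ± 0.115 (adjusted p 0.134, not passed), although the IDPN groups did not overlap. Over the alternatives that adjusted p ran from 0.0124 to 0.592. Without the 3 libraries with fewer detected genes the value was 0.28, with IDPN-3wk 3 as the only library of its group. Counts of Col9a2 per 100 of Col9a3 were 246, 244 and 243 in control, 262, 242 and 186 in IDPN-3wk, and 84.8, 152 and 131 in IDPN-7wk. The 7-week ratios, 123 ± 34.3, lay below all others, against 244 ± 1.69 in control and 230 ± 39.2 at 3 weeks (SD, n = 3). Counts of Col9a1 per 100 of Col9a3 were 242, 295 and 206 in control, 215, 249 and 200 in IDPN-3wk, and 194, 198 and 198 in IDPN-7wk. The 7-week ratios were below all others, though close to Control 3 and IDPN-3wk 3, and the 3-week ones overlapped the controls.

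Col14a1 (ENSRNOG00000026415) codes for collagen XIV, a FACIT collagen of collagen I fibrils. It was at 85.3, 103 and 102 CPM in control, 51, 99.6 and 69.5 in IDPN-3wk, and 38.4, 54.3 and 46.7 in IDPN-7wk. At 3 weeks IDPN-3wk 2 sat among the controls, and at 7 weeks all 3 libraries were below them. It was downregulated at 7 weeks, by -1.06 ± 0.226 (adjusted p 0.0211), a call that held in 12 of 16 alternatives with adjusted p from 0.000214 to 0.0999. It was lost without Control 2 (0.0766), Control 3 (0.0663), IDPN-7wk 1 (0.0999) or IDPN-7wk 3 (0.0807). The plot of DEG levels shows these values by library.

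**Figure D3:**
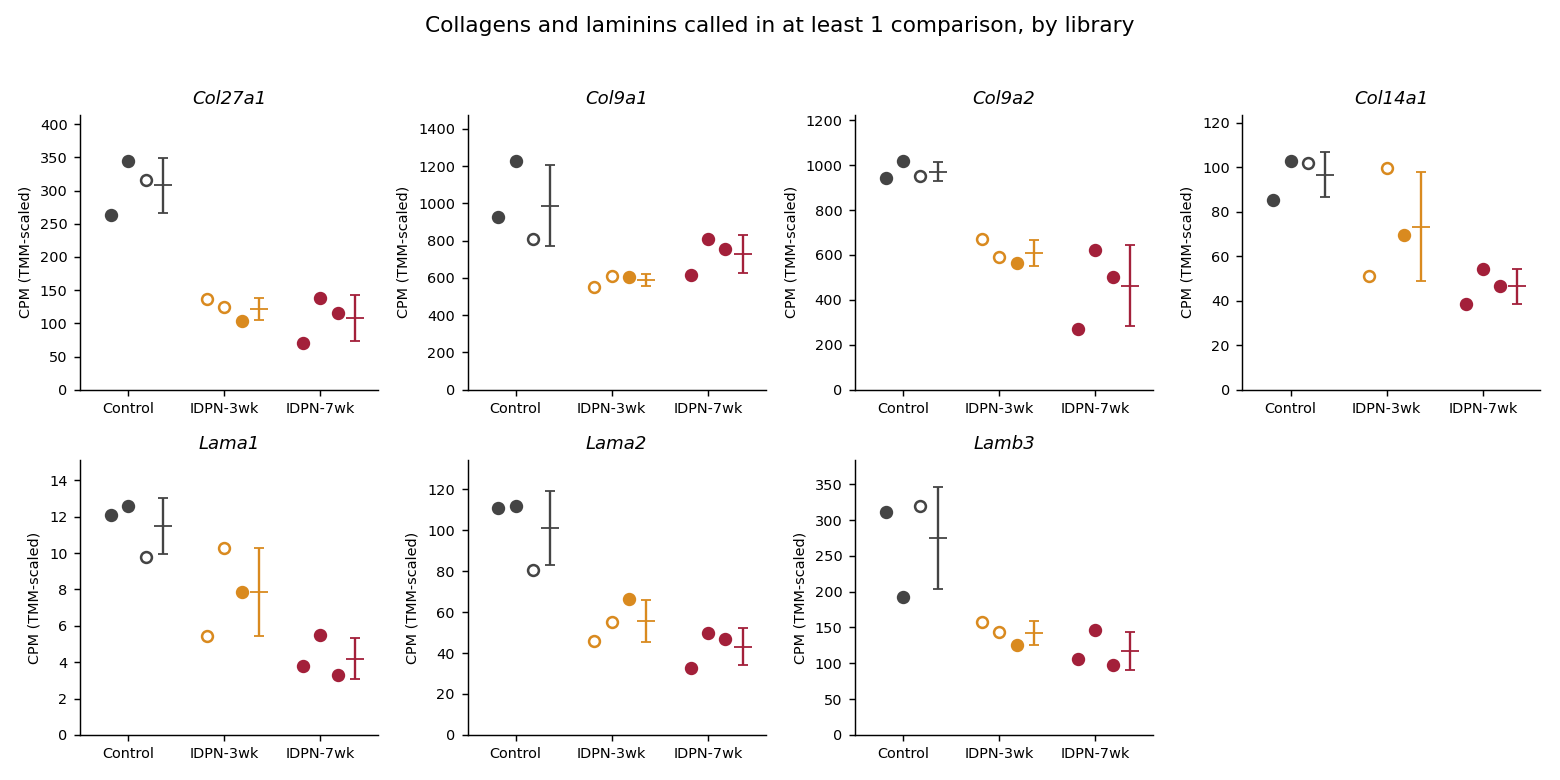
CPM (vertical axes) of 7 of the 8 members that were DEGs in at least 1 comparison, by group (horizontal axes); points are libraries, open circles the 3 with fewer detected genes, bars the mean and SD (n = 3). Each lies lower in at least 1 IDPN group than in control, as Lama2 does in IDPN-7wk, at 32.8 to 49.9 CPM against 80.4 to 112 CPM.

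The remaining collagens were read by class. Of the 5 tested collagen IV chains, which form the sheet of the basement membrane, edgeR called 0 at either time. At an unadjusted p under 0.05 there were 2 at 3 weeks and 3 at 7 weeks, and DESeq2 called 2 and 0. For these and for collagen VI below, edgeR called 1.65% and 5.13% of all genes. The shares of all genes were 15.8% and 19.3% at an unadjusted p under 0.05, and 5.04% and 8.81% by DESeq2. The common chain Col4a1 was at 103, 101 and 134 CPM in control, 80.9, 136 and 135 in IDPN-3wk, and 96.4, 161 and 135 in IDPN-7wk, which overlap. The more restricted chain Col4a3 was at 12, 15 and 17.3 CPM in control, 4.93, 8.35 and 10.1 in IDPN-3wk, and 10.5, 8.8 and 10.8 in IDPN-7wk, all below the controls. Its log2 fold change at 3 weeks was -0.92 (adjusted p 0.151), and it was a DEG by DESeq2 alone (0.0339, the lowest over the alternatives). Without the 3 libraries with fewer detected genes the value was -0.42, from IDPN-3wk 3 alone against Control 1 and Control 2. At 7 weeks it was -0.56 (adjusted p 0.321). Counts of Col4a3 per 100 of Col4a1 were 11.7, 14.8 and 12.9 in control, 6.09, 6.16 and 7.52 in IDPN-3wk, and 10.9, 5.48 and 8 in IDPN-7wk, again below the controls. Col4a5 was at -1.55 and -1.24 at 3 and 7 weeks (adjusted p 0.162 and 0.199 by edgeR), and DESeq2 called it at 3 weeks. Col4a4 was at -0.38 and -0.57 (0.352 and 0.106), and Col4a2 at 0.27 and 0.58 (0.509 and 0.105). Col4a5 and Col4a4 lay below all controls at both times, and Col4a2 lay above them at 7 weeks only. The collagen VI chains, which form beaded filaments around cells, had 0 DEGs by edgeR among 4 tested, 0 at an unadjusted p under 0.05 at either time, and 0 and 0 by DESeq2. The tested chains were Col6a1, Col6a2, Col6a5 and Col6a6, with Col6a5 and Col6a6 at means of only 0.636 and 2.03 CPM. Col6a3 was not among the members, so that chain was not analysed.

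Col7a1, the chain of the fibrils that anchor a basement membrane to the stroma, was at 44.8, 48.4 and 37.4 CPM in control, 38, 38.3 and 35 in IDPN-3wk, and 27.6, 30.4 and 29.5 in IDPN-7wk. The 7-week libraries were below all others. The log2 fold change was -0.58 ± 0.137 with an adjusted p of 0.0348, short of the fold threshold, and over the alternatives the adjusted p ran from 0.000566 to 0.142. Col8a2, a chain of the short collagen VIII network, was at 34.1, 30.7 and 50.9 CPM in control, 60.5, 62.7 and 56.4 in IDPN-3wk, and 54, 70.6 and 55.6 in IDPN-7wk. Both exposed groups lay above the controls, with log2 fold changes of 0.64 at each time and adjusted p of 0.142 and 0.0888, neither passed. Without Control 3, it was a DEG at both times (adjusted p 0.0355 and 0.0147, in ranges of 0.0332 to 0.349 and 0.00542 to 0.278 over the alternatives), and so was Col7a1 at 7 weeks (0.0245). Col8a2 was also a DEG by DESeq2 at both times (0.0332 and 0.0218). At 7 weeks Col8a2 and Col7a1 were DEGs without the 3 libraries with fewer detected genes (0.00542 and 0.00619) and with that set as a covariate (0.0278 and 0.0409).

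Laminins had 4 DEGs among 10 members at 7 weeks, of which 3 are described. The alpha chains come first. Lama2 (ENSRNOG00000011134), the alpha 2 chain of Schwann cell and muscle basement membranes, was at 111, 112 and 80.4 CPM in control, 45.7, 55 and 66.2 in IDPN-3wk, and 32.8, 49.9 and 46.8 in IDPN-7wk. All exposed libraries were below all controls. It was downregulated at 7 weeks by -1.23 ± 0.204 (adjusted p 0.00671), a DEG in each of 16 alternatives with adjusted p from 7.74e-07 to 0.0309. At 3 weeks the value was -0.86 ± 0.202 (adjusted p 0.0671, and 0.00272 to 0.209 over the alternatives), not passed. It was a DEG in 4 of 16 alternatives: by DESeq2 (0.00272), with no count filter (0.0495), with at least 10 counts in every library (0.0411) and without IDPN-3wk 3 (0.049). The direct test gave -0.37 with an adjusted p of 0.469.

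Lama1 (ENSRNOG00000017237), the alpha 1 chain of early epithelial basement membranes, was at 12.1, 12.6 and 9.76 CPM in control, 5.45, 10.3 and 7.87 in IDPN-3wk, and 3.81, 5.47 and 3.32 in IDPN-7wk. The 7-week libraries lay below all controls, while at 3 weeks IDPN-3wk 2 overlapped them. It was downregulated at 7 weeks by -1.45 ± 0.316 (adjusted p 0.0237), in 12 of 16 alternatives, with adjusted p from 0.000191 to 0.108. The call was lost without Control 1 (0.0842), Control 2 (0.0874), IDPN-7wk 1 (0.108) or IDPN-7wk 3 (0.108). At 3 weeks the value was -0.55 (adjusted p 0.431), and the direct test gave -0.90 (adjusted p 0.245).

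The alpha chains 4 and 5 did not follow. Lama4, the chain of vessel and Schwann cell laminins, was at 105, 105 and 78.4 CPM in control, 109, 125 and 120 in IDPN-3wk, and 127, 118 and 116 in IDPN-7wk. Both exposed groups were above the controls, with log2 fold changes of 0.30 and 0.33 and adjusted p of 0.273 and 0.178, not passed. At 7 weeks it was 0.20 without Control 3 (adjusted p 0.386). Lama5, the chain of most mature epithelial laminins, was at 58.3, 66.4 and 59.3 CPM in control, 67.7, 44.3 and 50.2 in IDPN-3wk, and 67.5, 84.3 and 69.9 in IDPN-7wk. Its 7-week libraries lay above the controls, with an adjusted p of 0.435. Counts of Lama2 per 100 of Lama4 were 106, 107 and 102 in control, 41.7, 44 and 55 in IDPN-3wk, and 25.9, 42.1 and 40.4 in IDPN-7wk. Each exposed ratio, at most 55, was below each control, at least 102. Counts of Lama1 per 100 of Lama5 were 20.7, 19 and 16.5 in control, 8.05, 23.2 and 15.7 in IDPN-3wk, and 5.64, 6.49 and 4.75 in IDPN-7wk, lower in each 7-week library than in any other.

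Among the beta chains the 1 DEG was Lamb3 (ENSRNOG00000006025), the beta 3 chain of the epithelial laminin at hemidesmosomes. It was at 312, 193 and 320 CPM in control, 158, 143 and 125 in IDPN-3wk, and 106, 147 and 97.9 in IDPN-7wk. All exposed libraries were below the controls, although Control 2 was close to them. It was downregulated at 7 weeks by -1.23 ± 0.21 (adjusted p 0.00743, and 1.23e-06 to 0.0417 over 16 alternatives, a DEG in each). At 3 weeks the value was -0.95 ± 0.209 with an adjusted p of 0.0538, which did not pass. Over 16 alternatives the adjusted p ran from 0.000854 to 0.239. In 6 it was a DEG, namely without Control 2 (0.0263) or IDPN-7wk 2 (0.049), by DESeq2 (0.000854), with no count filter (0.0346), with at least 10 counts in every library (0.0271) and with a covariate for the set of 3 libraries in which fewer genes were detected (0.046).

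**Figure D4:**
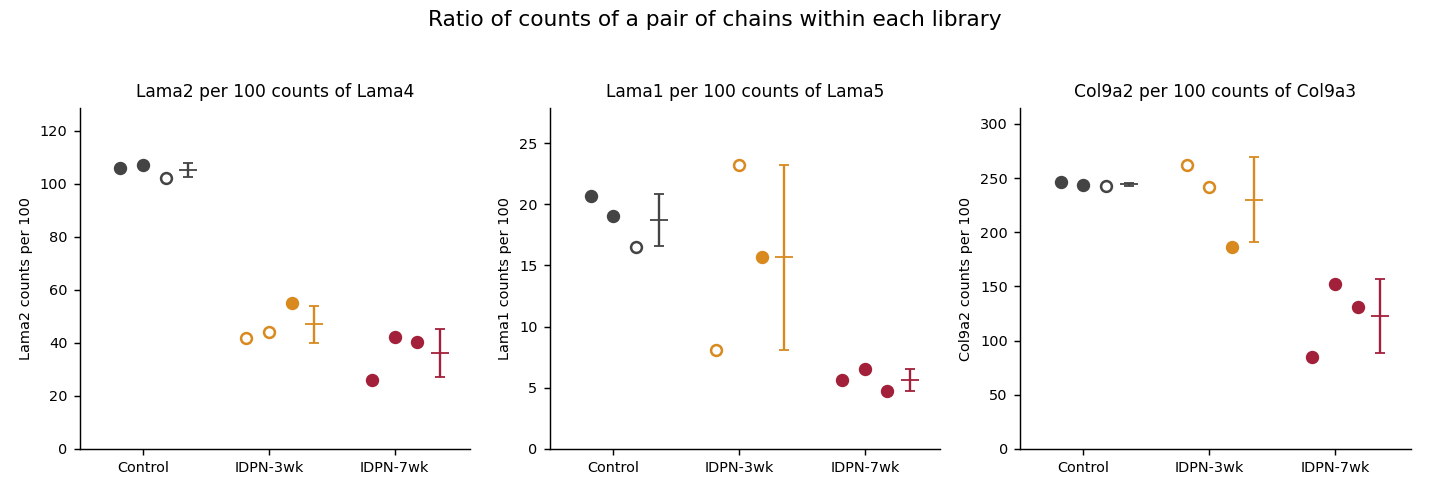
Counts of one chain per 100 counts of its partner or paralog (vertical axes) by group (horizontal axes); points are libraries, open circles the 3 with fewer detected genes, bars the mean and SD (n = 3). For Lama2 per 100 of Lama4 the control libraries lie at 102 to 107, IDPN-3wk at 41.7 to 55 and IDPN-7wk at 25.9 to 42.1.

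By edgeR the common partner chains Lamb1, Lamb2 and Lamc1 were not DEGs, while DESeq2 called Lamc1 at 7 weeks. Lamb1 was at 122, 156 and 120 CPM in control, 110, 123 and 153 in IDPN-3wk, and 96.6, 129 and 114 in IDPN-7wk. Lamb2 was at 433, 441 and 385 CPM in control, 435, 548 and 460 in IDPN-3wk, and 523, 511 and 511 in IDPN-7wk. Lamb1 overlapped throughout, and Lamb2 lay above the controls at 7 weeks by 0.30 on the log2 scale, which did not pass (adjusted p 0.125). Lamc1, the gamma chain of most laminins, was at 77.1, 85.7 and 184 CPM in control, 95.7, 119 and 67.4 in IDPN-3wk, and 36, 62.3 and 60.7 in IDPN-7wk. Control 3 was far above its group, and the 7-week libraries were below all others. The log2 fold change at 7 weeks was -1.13 ± 0.35 (adjusted p 0.099, and 0.013 to 0.333 over the alternatives), and by DESeq2 it was -1.12 (adjusted p 0.013). It was -0.62 without Control 3 (adjusted p 0.311), -0.62 without the 3 libraries with fewer detected genes (0.124) and -0.71 with that set as a covariate (0.125).

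Promoter sequences are shown because several collagen and laminin members were downregulated at the same time. RefSeq promoters of the GRCr8 build, running from 250 bases before to 50 after the start, were matched by symbol to 57 of the 73 members. The motifs searched on both strands were the AP-1 site TGANTCA, the GC box GGGCGG, the TATA box TATAAA and the SOX-type motifs ACAAAG and ACAATG. Of 33469 promoters, 7.33% held TGANTCA, 33.1% GGGCGG, 14.2% TATAAA, 18.8% ACAAAG and 13.2% ACAATG. Of the 57, the motifs were held by 1 (1.75%), 31 (54.4%), 6 (10.5%), 8 (14%) and 2 (3.51%). For the DEGs with an entry, capitals in the lines that follow mark matches to these motifs on either strand. These matches describe letters in a window and are not binding sites. The sequences are given 5' to 3' on the gene's strand.
Col27a1, chr5:81662658-81662957 (GRCr8, plus strand): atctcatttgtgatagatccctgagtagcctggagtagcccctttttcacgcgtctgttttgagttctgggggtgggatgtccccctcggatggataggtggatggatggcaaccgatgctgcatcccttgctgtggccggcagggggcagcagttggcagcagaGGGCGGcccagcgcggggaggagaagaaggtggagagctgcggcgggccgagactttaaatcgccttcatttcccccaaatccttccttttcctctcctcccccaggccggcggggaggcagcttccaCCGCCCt
Col9a1, chr9:34081114-34081413 (GRCr8, plus strand): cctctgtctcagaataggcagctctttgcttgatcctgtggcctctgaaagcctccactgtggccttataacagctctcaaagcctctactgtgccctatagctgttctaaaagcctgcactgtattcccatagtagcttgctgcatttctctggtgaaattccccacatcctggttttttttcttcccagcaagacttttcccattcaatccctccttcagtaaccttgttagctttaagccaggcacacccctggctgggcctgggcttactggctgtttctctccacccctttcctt
Col9a2, chr5:139892548-139892847 (GRCr8, plus strand): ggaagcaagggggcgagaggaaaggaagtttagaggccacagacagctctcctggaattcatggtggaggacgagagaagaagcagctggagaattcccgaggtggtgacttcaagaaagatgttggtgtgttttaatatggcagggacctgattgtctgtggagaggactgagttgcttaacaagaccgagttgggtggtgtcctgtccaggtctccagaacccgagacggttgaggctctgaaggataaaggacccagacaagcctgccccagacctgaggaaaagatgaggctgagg
Lama2, chr1:19491896-19492195 (GRCr8, plus strand): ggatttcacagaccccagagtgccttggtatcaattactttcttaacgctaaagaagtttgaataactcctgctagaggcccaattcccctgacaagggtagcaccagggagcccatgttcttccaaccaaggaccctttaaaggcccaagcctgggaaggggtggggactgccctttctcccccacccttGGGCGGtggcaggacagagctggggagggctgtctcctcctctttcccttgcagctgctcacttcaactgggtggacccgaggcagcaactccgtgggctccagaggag
Lama1, chr9:115139298-115139597 (GRCr8, plus strand): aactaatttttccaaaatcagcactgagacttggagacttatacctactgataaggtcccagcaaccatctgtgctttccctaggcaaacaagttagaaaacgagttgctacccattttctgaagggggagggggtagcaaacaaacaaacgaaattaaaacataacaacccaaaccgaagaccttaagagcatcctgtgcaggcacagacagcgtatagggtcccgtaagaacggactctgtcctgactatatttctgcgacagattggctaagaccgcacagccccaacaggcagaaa
Lamb3, chr13:107362303-107362602 (GRCr8, plus strand): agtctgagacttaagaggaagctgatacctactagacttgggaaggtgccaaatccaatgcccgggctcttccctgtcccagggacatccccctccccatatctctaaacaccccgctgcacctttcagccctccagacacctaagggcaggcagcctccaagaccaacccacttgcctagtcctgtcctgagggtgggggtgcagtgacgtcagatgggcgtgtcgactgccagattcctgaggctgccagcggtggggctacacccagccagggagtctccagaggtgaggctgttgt
The entry for Col14a1 is missing.

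The integrins had no DEG by edgeR in any comparison of the 9 libraries, with 2 members at an unadjusted p under 0.05 in each and 0, 0 and 1 DEGs by DESeq2. Without the 3 libraries with fewer detected genes, edgeR called 2 at 7 weeks, Itga3 and Itgb2, beside 9.56% of all genes. Itgb1, the beta subunit shared by most matrix receptors, was at 297, 266 and 331 CPM in control, 303, 322 and 324 in IDPN-3wk, and 241, 331 and 314 in IDPN-7wk. Its groups overlapped, with log2 fold changes of 0.09 ± 0.126 and -0.01 ± 0.126. The alpha 6 beta 4 dimer is the laminin receptor of hemidesmosomes. Itgb4 was at 201, 221 and 235 CPM in control, 157, 202 and 198 in IDPN-3wk, and 169, 196 and 199 in IDPN-7wk. The 7-week libraries lay just under the controls, and neither value passed (adjusted p 0.369 and 0.366). Itga6 was at 85.6, 115 and 84.9 CPM in control, 104, 115 and 102 in IDPN-3wk, and 51.1, 104 and 102 in IDPN-7wk, with IDPN-7wk 1 far below the other 8 libraries.

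The other laminin-binding alpha subunits differed in sign, and neither was a DEG in the fit of the 9 libraries. Itga3 was at 52.6, 45.4 and 52.8 CPM in control, 37.8, 72.2 and 51.5 in IDPN-3wk, and 88.3, 68.4 and 71 in IDPN-7wk. Its 7-week libraries lay above all controls, with a log2 fold change of 0.59 ± 0.212 and an adjusted p of 0.15, and over the alternatives the adjusted p ran from 0.0215 to 0.463. It was a DEG without the 3 libraries with fewer detected genes (0.63, adjusted p 0.0215) and in the fit of the 2 groups alone (0.0285). Itga7 was at 60.2, 72.4 and 70.8 CPM in control, 46.5, 59 and 60.8 in IDPN-3wk, and 34.8, 60.4 and 53.3 in IDPN-7wk. The control and 7-week ranges overlapped narrowly, and the 7-week value of -0.45 had an adjusted p of 0.246, and it was -0.25 without IDPN-7wk 1 (0.604). Counts of Itga3 per 100 of Itgb1 were 17.7, 17 and 15.9 in control, 12.5, 22.4 and 15.9 in IDPN-3wk, and 36.6, 20.7 and 22.6 in IDPN-7wk, higher than control in each 7-week library.

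Itgb8, the beta subunit that binds latent TGF-beta together with alpha V, was at 35.3, 37.7 and 25.7 CPM in control, 23.6, 21.2 and 20.8 in IDPN-3wk, and 25.1, 26.9 and 31.2 in IDPN-7wk. The IDPN-3wk libraries were below all others, with a log2 fold change of -0.59 ± 0.178 and an adjusted p of 0.142. The leukocyte subunit Itgb2 was at 1.05, 0.94 and 0 CPM in control, 0, 7.58 and 4.03 in IDPN-3wk, and 5.95, 4.21 and 4.1 in IDPN-7wk, so all 7-week libraries were above the controls. Without the 3 libraries with fewer detected genes it was a DEG at 7 weeks (2.25, adjusted p 0.00385, in a range of 0.00385 to 0.637 over the alternatives). Itga2, a collagen receptor subunit, had 17, 20 and 0 counts in control, 0 in all 3 IDPN-3wk libraries, and 11, 26 and 39 in IDPN-7wk. Against a floor of 3 counts over the group, its CPM was at least 11.7-fold lower in IDPN-3wk than in control and at least 18.3-fold lower than in IDPN-7wk. Neither passed by edgeR (adjusted p 0.191 and 0.21). DESeq2 called Itga2 between the IDPN groups (0.0345, in a range of 0.0345 to 0.596 over the alternatives). Control 3, with 0 counts, belongs to the libraries with fewer detected genes, as do IDPN-3wk 1 and 2. The integrin medians did not move with Itga2 set to its bound. Itga2 and Itgb2 were chosen after their values were seen, as were Col1a1, Col11a1, Col4a1, Col4a2, Col4a3, Col4a4 and Col4a5.

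Between the IDPN groups, the members nearest to a difference were Col16a1 and Col9a3. Col16a1, a FACIT collagen of several stromas, was at 18.3, 20.7 and 22.9 CPM in control, 15.6, 13.1 and 16.3 in IDPN-3wk, and 22.8, 31.5 and 31.1 in IDPN-7wk. It lay below all controls at 3 weeks and around or above them at 7 weeks. The direct comparison gave 0.93 ± 0.19 with an adjusted p of 0.0747, not passed by edgeR. Over the alternatives the adjusted p ran from 0.000259 to 0.306. It was a DEG by DESeq2 (0.000259) and without IDPN-3wk 3 (0.048). With the title code as a block, which was added after the data were seen, this contrast rests on IDPN-7wk 1 against IDPN-3wk 1 alone. In that fit Col16a1 was at 0.55, Col9a2 at -1.32, Col11a2 at -2.61 and Col11a1 at -0.99. Without the block, Col9a2, Col11a2 and Col11a1 were at -0.39, -0.52 and -0.07, with adjusted p of 0.507, 0.672 and 0.942 by edgeR. Each side of the blocked contrast is a single library, and its spread comes from the other libraries. Calls from that fit are therefore not counted.

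Other genes of matrix and adhesion were counted from 10 lists. Of all genes tested, 1.65% were DEGs at 3 weeks, 5.13% at 7 weeks and 0.483% between the IDPN groups. The share of each list with DEGs stands beside its count. At 3 and 7 weeks, 15.8% and 19.3% of all genes had an unadjusted p under 0.05, and DESeq2 called 5.04% and 8.81%. The list of 18 tested basement membrane partners had 2 DEGs at 7 weeks (11.1%), Smoc1 (-0.63, adjusted p 0.00889) and Egflam (-0.73, adjusted p 0.0226), both downregulated. This count was 0 without Control 1 and 1 without Control 3, IDPN-7wk 1 or IDPN-7wk 3. At 3 weeks edgeR called 0, with 5 at an unadjusted p under 0.05 and 1 by DESeq2. Its most abundant gene, Sparc, was not a DEG. For 11 tested genes of the otolithic membrane and cupula there was 1 DEG at 3 weeks (9.09%), Otogl, and 5 at 7 weeks (45.5%). Otogl (-1), Tectb (-1.73), Otog (-1.26) and Sparcl1 (-0.94) were downregulated and Oc90 (2.14) was upregulated, with adjusted p from 0.000621 to 0.016. The 3-week count was 2 without IDPN-3wk 2 or IDPN-7wk 1, and the 7-week count was 4 to 5 when single libraries were left out.

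Enzymes and chaperones of collagen synthesis, 29 tested, gave 1 DEG at 3 weeks (3.45%) and 4 at 7 weeks (13.8%), the latter 3 to 5 when single libraries were left out. Adamts2, which removes the amino-terminal propeptide of fibrillar procollagens, was at 99.8, 88.9 and 83.9 CPM in control, 71, 59.8 and 58.3 in IDPN-3wk, and 17, 29.8 and 24.7 in IDPN-7wk. The 3 groups did not overlap, and the log2 fold change at 7 weeks was -1.93 with an adjusted p of 0.000457. Lox, which cross-links collagen, was at 18.5, 17.4 and 19.4 CPM in control, 19.8, 38.2 and 41.4 in IDPN-3wk, and 75.6, 59.3 and 56.3 in IDPN-7wk. It was upregulated at 7 weeks by 1.79 (adjusted p 0.003). Pcolce, an enhancer of carboxy-terminal propeptide removal, was at 63.5, 61.6 and 70.2 CPM in control, 87.8, 110 and 106 in IDPN-3wk, and 129, 162 and 143 in IDPN-7wk. It was upregulated at both times, by 0.64 (adjusted p 0.0315) and 1.15 (adjusted p 0.000621), with no overlap between groups. P3h4 was also downregulated at 7 weeks, at -0.68 (adjusted p 0.0471), and the most abundant gene, P4hb, was not a DEG. The 3-week count was 0 without Control 1, Control 2, Control 3, IDPN-3wk 2, IDPN-3wk 3 or IDPN-7wk 3, and 2 without IDPN-3wk 1. Between the IDPN groups the 1 DEG was Adamts2, lower at 7 weeks (-1.40, adjusted p 0.0113). That count was 0 without IDPN-7wk 3 and 4 without IDPN-3wk 3.

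Of 21 tested interstitial matrix glycoproteins, 3 were DEGs at 3 weeks (14.3%) and 2 at 7 weeks (9.52%). Spp1, osteopontin, an integrin ligand known also from type I HC and the most abundant of them, was at 5150, 4800 and 5570 CPM in control, 3240, 3100 and 2630 in IDPN-3wk, and 1340, 1640 and 1510 in IDPN-7wk. The 3 groups did not overlap, and it was downregulated at 3 weeks (-0.79, adjusted p 0.00709) and 7 weeks (-1.79, adjusted p 2.93e-05). HC markers, given below, were lower in the same libraries, and their part in this was not tested. Spp1 was also the 1 DEG of this list between the IDPN groups (-0.999, adjusted p 0.00326). Ecm1 was upregulated at both times, by 1.10 and 1.16, and Tgfbi at 3 weeks, by 0.62 (adjusted p 0.0208, 0.00684 and 0.0211). The 3-week count was 1 without Control 1, Control 2 or Control 3.

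Among 16 tested genes of TGF-beta signalling, 3 were DEGs at 3 weeks (18.8%) and 5 at 7 weeks (31.2%). Ctgf, a matrix-inducing secreted protein and the list's most abundant gene, was at 223, 140 and 194 CPM in control, 481, 470 and 672 in IDPN-3wk, and 1580, 984 and 1260 in IDPN-7wk. The 3 groups did not overlap. It was upregulated at 3 weeks by 1.54 (adjusted p 0.00908), at 7 weeks by 2.78 (adjusted p 0.00015) and between the IDPN groups by 1.24 (adjusted p 0.0434). Ltbp1, which stores latent TGF-beta in the matrix, was downregulated at both times, by -1.13 and -0.70. So was Ltbp2, by -1.55 and -1.98. At 7 weeks Tgfbr2 was downregulated (-0.79) and Tgfb3 upregulated (0.72). Adjusted p for these 6 calls ran from 0.00687 to 0.0447. The 7-week count was 2 without Control 1, Control 2, IDPN-7wk 1, IDPN-7wk 2 or IDPN-7wk 3. The call of Ctgf between IDPN groups was lost without Control 1, Control 3, IDPN-3wk 1, IDPN-3wk 2, IDPN-7wk 1 or IDPN-7wk 3.

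Non-integrin receptors for collagen and laminin, 13 tested, gave 0 by edgeR at 3 weeks (6 at an unadjusted p under 0.05, 1 by DESeq2) and 3 at 7 weeks (23.1%, beside 5.13% of all genes). These were Sdc3 (-0.93), Sgcd (-1.71) and Sdc1 (1.56), with adjusted p of 0.0437, 0.0303 and 0.037, and the most abundant was Sdc4. That count was 1 without Control 1, Control 2, IDPN-7wk 2 or IDPN-7wk 3, and 0 without IDPN-7wk 1. Adhesion plaque and signalling genes, 32 tested with Actn4 the most abundant, gave 0 by edgeR at 3 weeks (5 at an unadjusted p under 0.05, 1 by DESeq2). At 7 weeks they gave 2 (6.25%, near the 5.13% of all genes), Fermt1 (1.48, adjusted p 0.0312) and Flna (0.95, adjusted p 0.0432). That count was 0 without Control 2, IDPN-7wk 1 or IDPN-7wk 2 and 1 without Control 1, Control 3, IDPN-3wk 3 or IDPN-7wk 3. At 3 weeks it was 1 without IDPN-3wk 3.

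The other 3 lists had no DEG by edgeR at either time. Of 5 hemidesmosome partners, most abundant Cd151, 0 and 1 had an unadjusted p under 0.05 at 3 and 7 weeks, and DESeq2 called 0 and 1. The 7-week count was 1 without IDPN-3wk 2. Of 5 integrin subunits named by a letter, most abundant Itgav, 1 and 1 had an unadjusted p under 0.05, and DESeq2 called 0 and 0. Of 19 tested matrix metalloproteinases, related proteases and inhibitors, most abundant Timp3, 3 and 7 did, and DESeq2 called 2 and 3. The protease count was 1 at 3 weeks without IDPN-3wk 1 or IDPN-3wk 3, and 1 at 7 weeks without IDPN-3wk 1 or IDPN-3wk 2.

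Marker genes of HC and supporting cells differed beside the members, and their part in the results above was not tested. The shares of DEGs given for markers compare with 1.65% of all genes at 3 weeks and 5.13% at 7 weeks. Marker counts at an unadjusted p under 0.05 compare with 15.8% and 19.3% of all genes, and those by DESeq2 with 5.04% and 8.81%. For HC, 4 of 11 markers were DEGs at 3 weeks (36.4%) and 7 at 7 weeks (63.6%), all downregulated, and their summed level was 1870, 2000 and 1930 CPM in control, 1300, 1340 and 1040 in IDPN-3wk, and 1170, 992 and 1150 in IDPN-7wk. The most abundant was Otof. The 3-week count was 2 without Control 1, Control 3, IDPN-3wk 1, IDPN-3wk 3 or IDPN-7wk 3, and 1 without Control 2. Supporting cell markers, 13 with Otog the most abundant, gave 1 and 4 DEGs (7.69% and 30.8%), all downregulated. They summed to 13000, 13000 and 13100 CPM in control, 8000, 9630 and 7630 in IDPN-3wk, and 5190, 7550 and 6820 in IDPN-7wk. This list shares Otog, Otogl, Tectb and Zpld1 with the otolithic list, which summed to 13700, 13600 and 13700 CPM in control. Otogl was the supporting cell DEG at 3 weeks, and Otog, Otogl and Tectb were among those at 7 weeks. The calls and the sum of this list are therefore not separate from those of the otolithic list. Between the IDPN groups the 1 DEG among supporting cell markers was Gjb6 (-0.69, adjusted p 0.0426). That count was 0 without Control 1, IDPN-3wk 2, IDPN-7wk 1, IDPN-7wk 2 or IDPN-7wk 3 and 2 without IDPN-3wk 3. The 3-week count of supporting cell markers was 2 without IDPN-7wk 1. HC and supporting cell sums, the latter with that overlap, were thus lower in each exposed library than in each control.

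Schwann cell markers, 10 genes, gave 0 DEGs by edgeR at 3 weeks (1 at an unadjusted p under 0.05, 0 by DESeq2). At 7 weeks Mbp and Pmp22 were downregulated (20%), and the summed level was 13100, 15300 and 14100 CPM in control, 11200, 13500 and 13800 in IDPN-3wk, and 5890, 9490 and 9780 in IDPN-7wk. The 7-week sums were the lowest 3 of the 9. The 7-week count was 0 without Control 1, Control 2, Control 3, IDPN-3wk 3 or IDPN-7wk 3, 1 without IDPN-3wk 2 or IDPN-7wk 2, and 5 without IDPN-3wk 1. Bone and cartilage markers, 7 of 9 tested, had 1 DEG at 7 weeks (14.3%), the cartilage proteoglycan Acan. It was at 28.6, 33.8 and 18.9 CPM in control, 16.2, 15.8 and 13.2 in IDPN-3wk, and 3.61, 4.07 and 2 in IDPN-7wk, with a log2 fold change of -3.07 (adjusted p 0.000543). Matn1, a defining cartilage gene, was at 0 in 8 libraries and Bglap was near 0 in all. The list summed to 134, 123 and 120 CPM in control, 87.8, 123 and 140 in IDPN-3wk, and 68.2, 98.7 and 112 in IDPN-7wk, with Dmp1 the most abundant. At 3 weeks it had 0 DEGs by edgeR, 1 at an unadjusted p under 0.05 and 0 by DESeq2. Between the IDPN groups Acan was lower at 7 weeks (-2.22, adjusted p 0.0119), a call that was lost without IDPN-7wk 1.

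**Figure D5:**
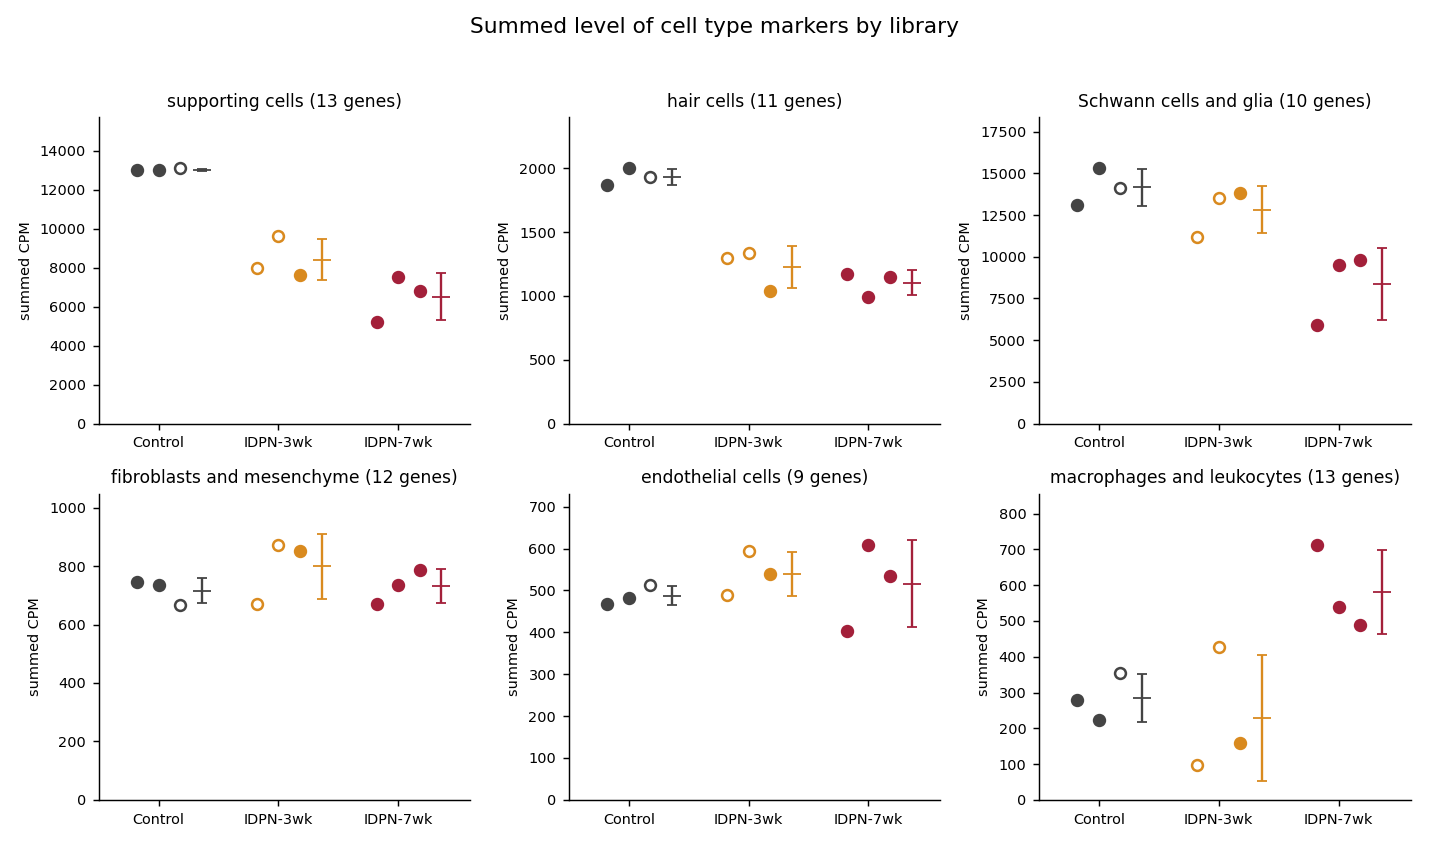
Summed CPM of marker lists for cell types (vertical axes) by group (horizontal axes); points are libraries, open circles the 3 with fewer detected genes, bars the mean and SD (n = 3). Supporting cell markers, which include Otog, Otogl, Tectb and Zpld1 of the otolithic list, sum to 13000 to 13100 CPM in control and to 5190 to 9630 CPM in the IDPN libraries.

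Fibroblast markers, 12 with Pdgfra the most abundant, summed to 746, 737 and 666 CPM in control, 671, 873 and 853 in IDPN-3wk, and 671, 734 and 788 in IDPN-7wk, and at 7 weeks Lum was downregulated and Ogn upregulated (16.7%). That count of 2 was 1 without Control 2, Control 3 or IDPN-7wk 2 and 0 without IDPN-7wk 1 or IDPN-7wk 3. Endothelial markers, 9 with Cldn5 the most abundant, summed to 467, 483 and 512 CPM in control, 488, 593 and 539 in IDPN-3wk, and 404, 609 and 535 in IDPN-7wk, with Flt1 downregulated and Cdh5 upregulated at 7 weeks (22.2%). Both calls were lost without Control 1, Control 2, Control 3, IDPN-7wk 1 or IDPN-7wk 3, and 1 was left without IDPN-3wk 2, IDPN-3wk 3 or IDPN-7wk 2. Pericyte markers, 8 of 9 tested with Cspg4 the most abundant and Acta2 near 0, summed to 96.9, 136 and 113 CPM in control, 106, 125 and 123 in IDPN-3wk, and 88.1, 143 and 118 in IDPN-7wk. Kcnj8 was downregulated at 7 weeks (12.5%), and this count was 0 without Control 1, Control 2, Control 3, IDPN-7wk 1, IDPN-7wk 2 or IDPN-7wk 3 and 2 without IDPN-3wk 2 or IDPN-3wk 3. These sums overlapped between groups in each of the 3 lists. At 3 weeks edgeR called 0 in each, with 3, 2 and 1 at an unadjusted p under 0.05 and 2, 0 and 0 by DESeq2.

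Macrophage markers, 13 with Lyz2 the most abundant, summed to 278, 222 and 354 CPM in control, 97.6, 428 and 159 in IDPN-3wk, and 713, 539 and 490 in IDPN-7wk, highest in the 7-week libraries. C1qb was upregulated at 7 weeks (7.69%), and the count there was 6 without IDPN-3wk 1, 5 without IDPN-3wk 2 and 2 without IDPN-3wk 3. Melanocyte markers, 6 with Pmel the most abundant, summed to 700, 695 and 701 CPM in control, 671, 741 and 701 in IDPN-3wk, and 590, 587 and 596 in IDPN-7wk. Blood markers, 6 with Hba-a2 the most abundant, summed to 243, 275 and 225 CPM in control, 346, 319 and 404 in IDPN-3wk, and 219, 300 and 203 in IDPN-7wk. The melanocyte sums were lowest in the 7-week libraries, and the blood sums were higher in each IDPN-3wk library than in any other. Neither melanocyte nor blood markers had a DEG by edgeR at either time, with 0 and 3 at an unadjusted p under 0.05 at 3 weeks, 3 and 0 at 7 weeks, and by DESeq2 1 blood marker at 3 weeks. Neuronal markers, 8 with Nefl the most abundant, summed to 112, 129 and 112 CPM in control, 70.3, 81.5 and 75.5 in IDPN-3wk, and 81.5, 64.6 and 81.4 in IDPN-7wk, below control in each exposed library. Snap25 was downregulated at both times (12.5% at each), except at 3 weeks without Control 2. Macrophage markers had 0 DEGs at 3 weeks by edgeR, 2 at an unadjusted p under 0.05 and 1 by DESeq2.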

How the data were processed

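RNA was sequenced from the vestibular epithelium of 9 rats, 3 per group (SMARTseq2 libraries, amplified by PCR, strand not stated). The authors mapped reads to the rat genome Rnor6.0 with STAR 2.5.3a and estimated expected counts per gene with RSEM, and the deposited table holds these expected counts as whole numbers without normalization. Library totals ran from 31100118 to 46018385. Entries were followed by Ensembl identifier, since 4258 share a symbol. In R 4.3.3, genes kept by filterByExpr were scaled by TMM and tested with the robust quasi-likelihood F test of edgeR 4.0.16. All 9 libraries entered 1 model with group means, with 6 residual degrees of freedom and 4.07 prior ones (median). Benjamini-Hochberg adjustment ran over all 15517 genes in each of 3 comparisons. Thresholds were an adjusted p of 0.05 and a fold change of 1.5. CPM used TMM-scaled totals, and standard errors came from the model. Steps were tested on simulated data.

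Named members were the DEGs, apart from 1 that is only counted, the 5 with the highest mean CPM in each family, the 2 with the smallest p among those that were not DEGs in each family and comparison at a mean of at least 1 CPM, and partner chains of DEGs. Members under 0.1 CPM on average were only counted. From the lists, up to 6 DEGs by adjusted p and the most abundant gene were named. Other names are said to have been chosen after their values were seen. The members and lists were chosen with earlier results of these data known. The lists were integrin subunits named by letter, basement membrane partners, matrix glycoproteins, collagen synthesis, matrix metalloproteinases and inhibitors, non-integrin receptors, integrin adhesion and signalling, hemidesmosome partners, otolithic membrane and cupula, and TGF-beta signals. Marker lists covered hair cells, supporting cells, fibroblasts, Schwann cells, endothelial cells, pericytes, macrophages, melanocytes, bone and cartilage, blood and neurons.

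Alternatives were DESeq2 1.42.0, relative log expression scaling, no count filter, a minimum of 10 counts in each library, a fit of only the 2 groups in question, a threshold of 2-fold or none, a covariate for the 3 libraries in which fewer genes were detected, and omission of each library in turn. Differences of log2(CPM + 2) were also taken within those 3 libraries and within the other libraries. Leaving out those 3 libraries, and a block for the title code in the comparison of the IDPN groups, were added after the data were seen. The latter is not among the 16 alternatives whose ranges are given. Promoters were read from RefSeq (GRCr8).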

Additional observations from a re-analysis of the deposited data

Results flagged for a closer look

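In 2 members, every IDPN-3wk library lay below the mean of the controls and every IDPN-7wk library above it. The direct test between the IDPN groups was made by edgeR and neither passed adjustment. For Col16a1 the log2 fold change of IDPN-7wk over IDPN-3wk was 0.93 (unadjusted p 0.000603, adjusted p 0.0747), with a control mean of 20.7 CPM. DESeq2 called it, and so did edgeR without IDPN-3wk 3 (adjusted p 0.048, in a range of 0.000259 to 0.306 over the alternatives). Col5a3, a minor collagen V chain, was at 17.9, 24.6 and 11.1 CPM in control, with a mean of 17.9, at 9.13, 17.7 and 17.2 in IDPN-3wk and at 18.8, 36.5 and 28.7 in IDPN-7wk. Its log2 fold change between the IDPN groups was 0.93 as well (unadjusted p 0.0275, adjusted p 0.293). The control libraries of Col5a3 overlapped both IDPN groups. Both comparisons with control share the 3 control libraries, and the cause was not tested.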

How the results depend on the processing

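Of the members that were DEGs at 7 weeks, Col27a1, Lama2 and Lamb3 were DEGs in each of the 16 alternatives that give an adjusted p, including the 9 that leave out 1 library. Col14a1 and Lama1 were DEGs in 12 and Col9a2 in 10. At 3 weeks Col27a1 was a DEG in 13 and Col9a1 in 6.

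The number of DEGs among members at 3 weeks, 2 as reported, was 8 with DESeq2, 4 with no count filter and 4 with at least 10 counts in every library. It was 1 with a fold change above 2, and 0 to 3 with single libraries left out. Without the 3 libraries with fewer detected genes IDPN-3wk 3 is alone in its group, so no 3-week count is given. At 7 weeks, 7 as reported, it was 12 with DESeq2 and 12 without those 3 libraries (9.56% of all genes against 5.13% as reported), and 4 to 9 with single libraries left out (3.21% and 3.22% of all genes where it was 4). DESeq2's 12 included all 7. Between the IDPN groups, 0 as reported by edgeR with 11 at an unadjusted p under 0.05, it was 2 with DESeq2 and 0 to 1 with single libraries left out. DESeq2 called more of all genes as well, 5.04%, 8.81% and 3.87% in the 3 comparisons.

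Without the 3 libraries with fewer detected genes, the median log2 fold change at 3 weeks was -0.41 for collagens and -0.11 for integrins. Between the IDPN groups that of integrins was 0.22 there. These values rest on IDPN-3wk 3 as the only library of its group and decide nothing. At 7 weeks the integrin median was -0.0604 without the 3 libraries and -0.0627 with at least 10 counts in every library, against 0.06 as reported. The integrin median at 7 weeks thus changed sign around 0. With single libraries left out, the medians at 3 weeks ran from -0.49 to -0.21 for collagens, from -0.36 to -0.16 for laminins and from -0.141 to 0.0832 for integrins. At 7 weeks they ran from -0.48 to -0.25, from -0.31 to -0.12 and from -0.10 to 0.12. Collagen and laminin medians against control kept their sign in all of these. The causes of these shifts were not tested, except that leaving out libraries leaves fewer samples.

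Named members were counted only in comparisons where their adjusted p by edgeR was low, up to 0.246 for Itga7 at 7 weeks. They gave 469 values with the same direction and side of the threshold (or within the spread between replicates). A further 33 passed only under an alternative, 27 no longer passed and 7 moved without a test. No call changed direction, but weaker differences, whose sign changes more easily, were left out of this count. Counts in the additional lists moved by over 1.5 times, or from or to none, in 149 cases. They moved by less or not at all in 670.

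With 3 rats a group, 6 residual degrees of freedom and a pooled tissue, differences smaller than the spread between rats may have been missed. The smallest difference that could be detected was not tested. The 3 libraries with fewer detected genes are 1 control and 2 IDPN-3wk libraries, with none of IDPN-7wk, so within them only the 3-week comparison has a value and the 7-week one has none. Within and outside them, the 3-week difference on log2(CPM + 2) was -1.26 and -1.52 for Col27a1, -0.48 and -0.81 for Col9a1, -0.59 and -0.79 for Col9a2, -0.64 and -0.395 for Col9a3, 0.27 and 0.77 for Col8a2, -0.18 and -0.75 for Itgb8, -0.66 and -0.74 for Lama2, and -1.08 and -0.97 for Lamb3. Members under about 1 CPM, Itga2 and Itgb2 rest on few counts. No paired analysis was possible against control because the labels tie no control animal to an exposed one. Between the IDPN groups the title code is shared by 1 library of each, and the block on it rests on that pair.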
